A study of Mus musculus with 8 samples.

Results

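The transcripts of laminin, nidogen, fibronectin and perlecan were examined in cultured muscle stem cells (MuSCs) of aged mice. The 10 genes were fixed by name: the laminin chains Lama2, Lama4, Lama5, Lamb1, Lamb2 and Lamc1, the nidogens Nid1 and Nid2, the fibronectin gene Fn1, and Hspg2, which encodes perlecan. All 10 were found among the 55487 gene rows of the count table. The names were given as a list, with no threshold on measured values, by a choice made with earlier results of these libraries in view.

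The MuSCs came from 8 mice labelled as old and had been sorted from hindlimb muscle as CD31-/CD11b-/CD45-/Sca1-/CD34+/Integrin α7+ cells. The study's methods name aged wild-type C57BL/6JRj males of 23 to 25 months, and 23 to 24 months for a proliferation assay on sorted MuSCs, and give no age for these libraries alone. Cells of 2 mice were combined into each of 4 pools. Every pool was split between vehicle (DMSO, 1%) and the combination of nicotinamide and pyridoxine (NAM/PN, labelled 1 mM for the combination, with no DMSO content stated). Both were kept for 72 hours in growth medium. This gave 8 libraries of 3′ RNA-seq, 4 per group, in which libraries of the same number come from the same mice. The replicates are therefore separate pools of animals, each library stands for 2 mice, and no young cells and no cells given only 1 of the vitamins were compared here. The question was how the combination changes the transcripts of aged MuSCs.

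Laminins are trimers of an alpha, a beta and a gamma chain that polymerize into the first sheet of a basement membrane and bind integrins and dystroglycan on the cell surface. Nidogens and perlecan link this sheet to the type IV collagen network, while fibronectin is a fibrillar glycoprotein that cells bind mainly through other integrins. In muscle these proteins form the basal lamina under which MuSCs reside, and MuSCs are known to deposit laminin chains and fibronectin themselves after activation.

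Depth ranged from 6472484 to 10163101 counts per library, so that 3 counts, taken as the limit of detection, corresponded to 0.28 to 0.457 CPM (counts scaled to a common library size). The paired box factor Pax7 lay at 166 to 247 CPM with vehicle and at 97.3 to 200.0 CPM with NAM/PN, and the muscle determination factor Myod1 at 1140 to 1560 and 1040 to 1310 CPM. Of 12 myocyte markers, all were tested and 8 were called as lower with NAM/PN (edgeR adjusted p under 0.05), and 10 were with the pool as a block, which added Ttn and Actc1. The summed level of all 12 was 1970 to 3880 CPM with vehicle and 465 to 1230 CPM with NAM/PN. The summed level of 12 MuSC and myoblast markers was 3080 to 3550 CPM with vehicle and 2470 to 3050 CPM with NAM/PN, with none of 10 tested called. Of this list, Fgfr4 was lower in 4 of 4 pools without overlap, at 64.1 to 82.1 CPM and 13.3 to 63.8 CPM, and Chodl and Calcr had no count with NAM/PN and few with vehicle. In bulk libraries, fewer cells of a type and less RNA per cell cannot be told apart. The part of these lower myocyte marker levels in the results on matrix genes was not tested.

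Nid2 was the 1 member whose difference between treatments passed the test, with counts in every vehicle library and none in any NAM/PN library. This holds for the fit without the pairing of pools (edgeR adjusted p = 0.0105), while no member was called once the pool entered as a block (edgeR adjusted p = 0.0552 for Nid2). The beta chains lay in opposite directions, Lamb1 higher in 4 of 4 pools and Lamb2 lower in 4 of 4 pools with groups that did not overlap, but neither passed the adjusted threshold. The other members overlapped between the groups. Calls were made with edgeR's quasi-likelihood test at an adjusted p under 0.05 over the 12060 genes that passed the filter on low counts, and 9 of the 10 members passed that filter. In this fit 1.28% of all tested genes were called in either direction, and 0.995% were called as lower with NAM/PN. Groups of libraries that do not overlap in CPM were found for 3 of the 9 tested members and for 7.21% of all tested genes. Nid2 passed the filter only through its vehicle libraries, so that these counts describe the tested members and are no evidence for the 10. The median log2 fold change of the 9 tested members was -0.12, and it was also -0.12 with Nid2 set to its bound, against -0.002 over all tested genes.

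In vehicle libraries the most abundant of the 10 transcripts were Hspg2 (114 ± 22.7 CPM, SD, n = 4) and Lamb1 (99.2 ± 18.7 CPM), followed by Lamc1 (47.9 ± 15.6), Lamb2 (36.5 ± 4.26), Nid1 (30.0 ± 3.02), Lama5 (29.7 ± 8.19), Fn1 (17.5 ± 2.80), Lama2 (14.9 ± 8.69), Nid2 (9.17 ± 3.78) and Lama4 (0.931 ± 1.86). The library preparation yields about a single read from the 3′ end of each transcript, so these levels were not divided by transcript length. Of neighbors in this order, only Lamb1 and Lamc1, and Nid2 and Lama4, had ranges that did not overlap. With NAM/PN, Lamb1 (146 ± 28.6 CPM) came first, above Hspg2 (86.6 ± 17.2 CPM) in every library, and Hspg2 in turn lay above Lamc1 (44.1 ± 12.7 CPM) in every library. Nid1 (39.6 ± 15.4 CPM), Lama5 (32.0 ± 13.6 CPM) and Fn1 (31.2 ± 25.2 CPM) overlapped with each other, and Lamb2 (14.5 ± 7.76 CPM) and Lama2 (7.54 ± 2.46 CPM) closed the list of detected members.

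**Figure D1:**
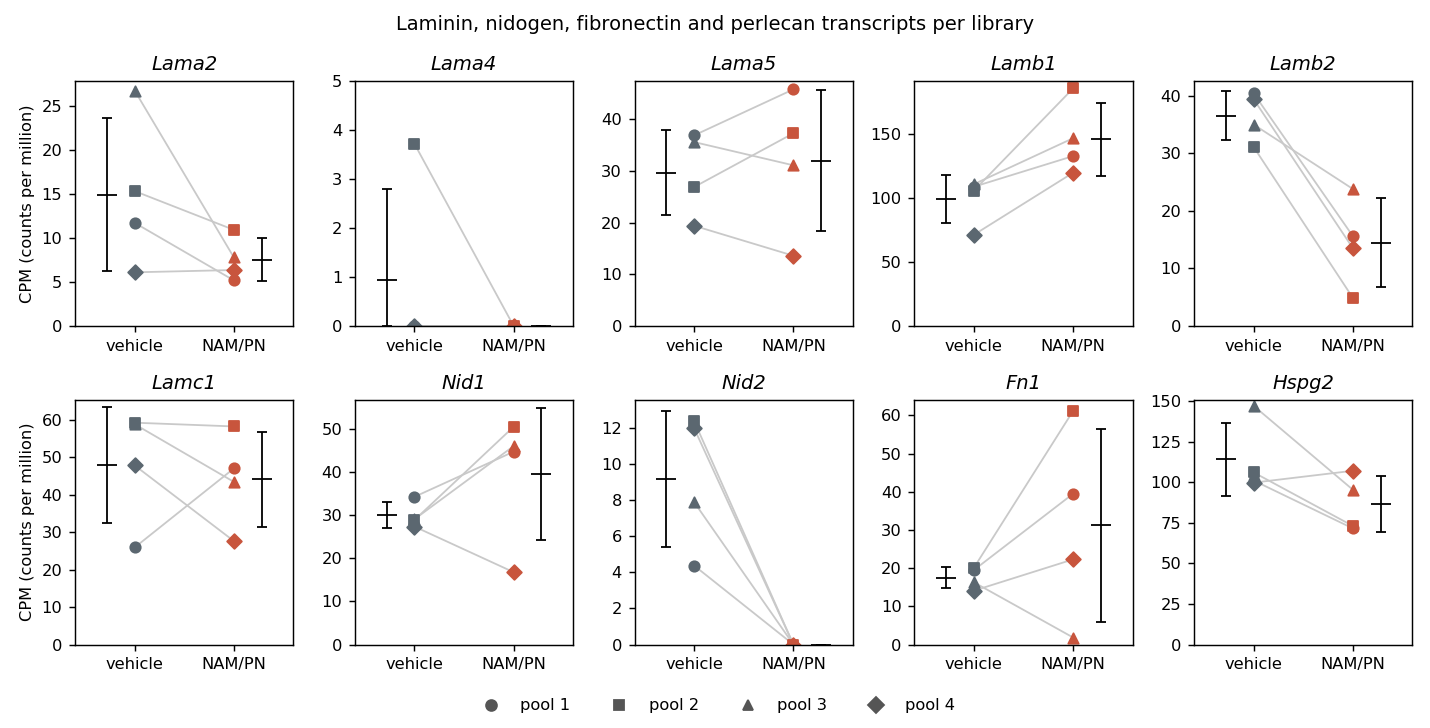
CPM of each of the 10 members in the 8 libraries, on a linear axis for each gene. Points are libraries, the same symbol joined by a line is the same pool of 2 mice under vehicle and NAM/PN, and bars beside the points are the mean and SD of 4 libraries. Nid2 is at 0 in all 4 NAM/PN libraries, Lamb1 is higher and Lamb2 lower with NAM/PN along all 4 lines, and Fn1 spreads from 1.83 to 61.2 CPM with NAM/PN.

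Among the laminin alpha chains, which carry the domains that bind cell surface receptors, Lama5 was the most abundant. Lama5 (ENSMUSG00000015647, GRCm38 chr2:180176373-180225859, minus strand) encodes the alpha chain of laminin-511 and laminin-521. Its level was 36.9, 26.9, 35.6 and 19.4 CPM in vehicle pools 1 to 4 and 45.8, 37.3, 31.1 and 13.6 CPM in the NAM/PN libraries of the same pools. It was higher in 2 pools and lower in the other 2, and the groups overlapped. Lama5 had a log2 fold change of 0.10 ± 0.364 (SE, edgeR adjusted p = 0.985), with a 95% interval from -0.66 to 0.87.

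Lama2 (ENSMUSG00000019899, chr10:26980036-27619758, minus strand) encodes the alpha chain of laminin-211, the main laminin of the mature myofiber basal lamina, whose loss causes congenital muscular dystrophy. Vehicle libraries held 11.7, 15.3, 26.7 and 6.09 CPM and NAM/PN libraries 5.17, 10.9, 7.77 and 6.35 CPM. Lama2 was lower with NAM/PN in 3 of 4 pools, with the largest difference in pool 3, while pool 4 was near the same low level under both treatments. The log2 fold change of Lama2 was -0.99 ± 0.576 (edgeR adjusted p = 0.699), its 95% interval ran from -2.19 to 0.22, and it was -0.55 without the vehicle library of pool 3. The last 2000 bases of Lama2 overlap the antisense gene Gm48084, which is at 0 CPM in all 8 libraries. Lama4 (ENSMUSG00000019846, chr10:38965515-39110188, plus strand), an alpha chain best known from vessels and peripheral nerve, had 30 counts (3.72 CPM) in the vehicle library of pool 2 and none in the other 7 libraries, did not pass the filter and was not tested.

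The make-up of the alpha chain counts varied among libraries of the same treatment. Lama2 gave 24.1, 33.2, 42.9 and 23.9% of all counts of the 3 alpha members with vehicle and 10.1, 22.5, 20.0 and 31.8% with NAM/PN. The share was lower with NAM/PN in 3 pools and higher in pool 4, and the groups overlapped. Exact binomial 95% intervals of single libraries spanned from 7.41% to 13.5% in the lowest and from 38.5% to 47.3% in the highest, and cover counting error only.

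The beta chains showed the clearest contrast within the laminins. Lamb1 (ENSMUSG00000002900, chr12:31265234-31329644, plus strand) encodes the beta chain of laminin-211, laminin-411 and laminin-511. It was measured at 109, 106, 111 and 71.4 CPM with vehicle and at 133, 186, 147 and 120 CPM with NAM/PN. Every NAM/PN library exceeded every vehicle library, and the mean was 1.47-fold higher. The log2 fold change of Lamb1 was 0.56 ± 0.205 with a 95% interval from 0.13 to 0.99, but the edgeR adjusted p over all genes was 0.299 and the unadjusted p was 0.0132.

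Lamb2 (ENSMUSG00000052911, chr9:108479736-108490530, plus strand) encodes the beta chain of laminin-221 and laminin-521, and is concentrated at the neuromuscular junction in adult muscle. Vehicle libraries held 40.4, 31.1, 35.0 and 39.4 CPM and NAM/PN libraries 15.6, 4.88, 23.8 and 13.5 CPM. All NAM/PN libraries lay below all vehicle libraries, the lowest being pool 2, which also had the highest Lamb1. The mean of Lamb2 was 2.52-fold lower with NAM/PN, and its log2 fold change was -1.34 ± 0.403 with a 95% interval from -2.18 to -0.49. Lamb2 did not pass the threshold in the fit of all genes (edgeR adjusted p = 0.144, unadjusted p = 0.00361, adjusted p = 0.0926 with the pool as a replicate block), although it did without the filter on low counts (adjusted p = 0.0391) and in the voom fit with quality weights (adjusted p = 0.0458).

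Seen within each library, which needs no scaling for depth, Lamb1 took a larger share of the beta chain counts with NAM/PN. Lamb1 gave 72.9, 77.3, 76.0 and 64.4% of the summed Lamb1 and Lamb2 counts with vehicle and 89.5, 97.4, 86.1 and 89.8% with NAM/PN. These groups did not overlap, and the mean share was 72.7 ± 5.80% (SD, n = 4) with vehicle and 90.7 ± 4.77% with NAM/PN. The exact 95% interval of the highest vehicle library ended at 79.7% and that of the lowest NAM/PN library began at 83.9%. The share was a description of the levels given above and was not tested. A share within a library does not show which of the chains differed.

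**Figure D2:**
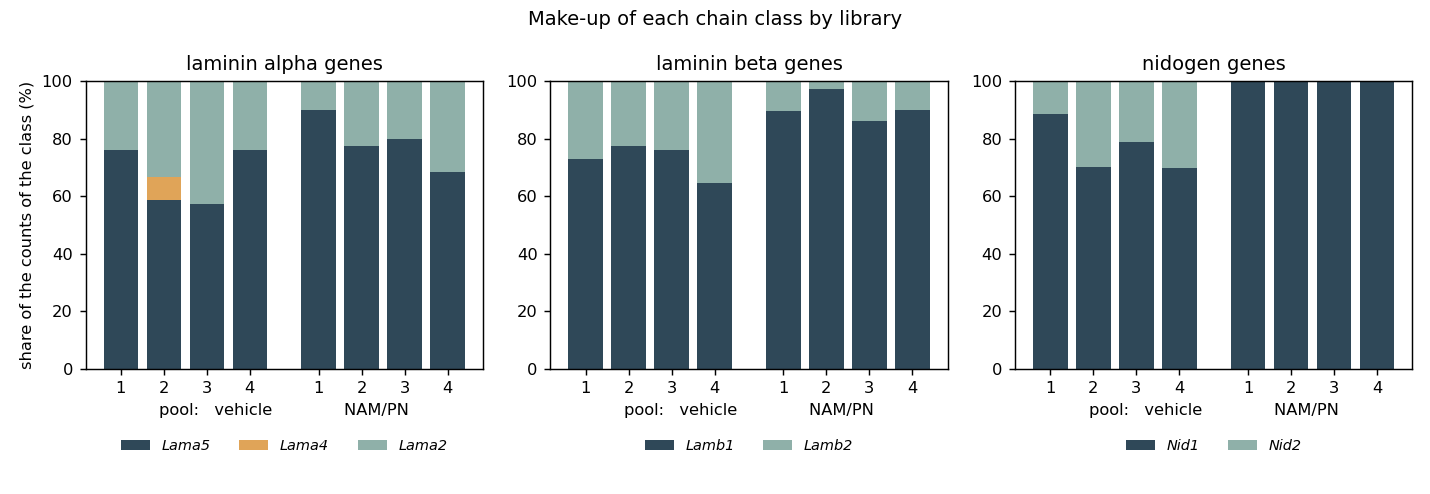
Share of each gene in the counts of its class (percent of summed counts), for the laminin alpha, laminin beta and nidogen members, by pool under vehicle (left bars) and NAM/PN (right bars). Lamb1 makes up 64.4 to 77.3% of beta chain counts with vehicle and 86.1 to 97.4% with NAM/PN, Nid2 is missing from all NAM/PN bars, and the alpha chain shares overlap.

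The promoter sequences of both beta chains are shown because these members lay on opposite sides of 0 in every pool. They run from 250 bases before to 50 bases after the start site in RefSeq (GRCm38.p6), both on the plus strand, Lamb1 at chr12:31265043-31265342 and Lamb2 at chr9:108479612-108479911, and are written 5′ to 3′. Capitals mark E-boxes (CANNTG, the letters bound by MYOD1 and related factors) and GC boxes (GGGCGG or its reverse complement CCGCCC, the letters bound by SP1), searched on both strands, with no overlap between them in these windows.
Lamb1: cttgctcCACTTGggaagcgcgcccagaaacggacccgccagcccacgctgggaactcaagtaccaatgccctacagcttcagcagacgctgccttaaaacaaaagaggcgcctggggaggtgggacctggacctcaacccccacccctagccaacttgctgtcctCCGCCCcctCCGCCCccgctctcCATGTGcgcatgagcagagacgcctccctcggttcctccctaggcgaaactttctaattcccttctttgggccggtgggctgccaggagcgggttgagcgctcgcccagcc
Lamb2: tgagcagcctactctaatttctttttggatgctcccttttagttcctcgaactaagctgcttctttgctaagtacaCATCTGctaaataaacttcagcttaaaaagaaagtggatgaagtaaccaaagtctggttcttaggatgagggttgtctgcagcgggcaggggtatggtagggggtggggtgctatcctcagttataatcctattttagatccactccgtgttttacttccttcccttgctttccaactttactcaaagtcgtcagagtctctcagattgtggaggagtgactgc
The Lamb1 window held 2 E-boxes, at bases 8 and 190 counted from its 5′ end, and 2 GC boxes, at bases 167 and 176, with a GC content of 63.7%. The Lamb2 window held 1 E-box at base 77 and 0 GC boxes, with a GC content of 44.0%. Of 32851 RefSeq promoters of 300 bases, with 1 chromosome left out, 72.3% held an E-box and 35.7% a GC box. Their median GC content was 52.7%. Promoters were at hand for 6 of the 10 members. Lama5 held 2 E-boxes and 4 GC boxes, Lama2 1 of each, Nid1 1 GC box, and Hspg2 5 GC boxes, the last 2 without an E-box. A match describes letters in the window and is not evidence of binding.

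Lamc1 (ENSMUSG00000026478, chr1:153218922-153332786, minus strand) encodes the gamma chain shared by most laminin trimers. It was measured at 25.9, 59.2, 58.8 and 47.8 CPM with vehicle and at 47.0, 58.2, 43.4 and 27.6 CPM with NAM/PN. Pool 1 was higher and the other 3 pools were lower with NAM/PN, and the groups overlapped over most of their range. The log2 fold change of Lamc1 was -0.12 ± 0.302 (edgeR adjusted p = 0.973), with a 95% interval from -0.75 to 0.51.

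Of the nidogens, Nid1 was read in all libraries and Nid2 in the vehicle libraries alone. Nid2 (ENSMUSG00000021806, chr14:19751265-19811787, plus strand), which binds the laminin gamma chain and type IV collagen and overlaps with Nid1 in function, had 37, 100, 64 and 110 counts in the vehicle libraries of pools 1 to 4, or 4.38, 12.4, 7.90 and 12.0 CPM. It had no count in any of the 4 NAM/PN libraries. The groups did not overlap. Against a floor of 3 counts per NAM/PN library, which averaged 0.381 CPM, the mean Nid2 level was at least 24.1-fold lower with NAM/PN (edgeR adjusted p = 0.0105, lower in 4 of 4 pools). This bound compares means and does not hold for each pool. In pool 1 it is smaller, at 4.38 CPM with vehicle against a floor of 0.369 CPM. In the fit that adds the pool as a block, the adjusted p was 0.0552, so that the call was lost. The call was also lost without the vehicle library of pool 2 (adjusted p = 0.0830) or of pool 4 (0.0767), and without both libraries of pool 2 (0.136) or of pool 4 (0.0902).

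Nid1 (ENSMUSG00000005397, chr13:13437551-13512269, plus strand), the more widely expressed nidogen, was measured at 34.3, 28.9, 29.1 and 27.4 CPM with vehicle and at 44.8, 50.6, 46.1 and 16.8 CPM with NAM/PN. The NAM/PN libraries of pools 1 to 3 lay above all vehicle libraries and that of pool 4 below all of them. Nid1 had a log2 fold change of 0.40 ± 0.329 with a 95% interval from -0.29 to 1.09 (edgeR adjusted p = 0.837), and it ranged from 0.24 to 0.65 when single libraries or pools were left out and was 0.07 without the NAM/PN libraries of pools 1 and 2. Nid2 accordingly gave 11.3, 30.0, 21.3 and 30.4% of nidogen counts with vehicle and 0 of 364, 363, 303 and 180 counts with NAM/PN, which at the floor of 3 counts allows shares of up to 0.824, 0.826, 0.990 and 1.67%. The upper ends of the exact 95% intervals were 1.01, 1.01, 1.21 and 2.03%. The Nid2 transcript was thus below detection at a depth at which Nid1 was read 180 to 364 times per library.

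The annotation places the 3′ end of Nid2 within 437 bases of overlap with Rtraf (chr14:19811351-19823824), a gene on the opposite strand that encodes an RNA-binding protein. Whether reads were assigned by strand is not given in the sources used here, so reads from the overlap could not be assigned with certainty. Rtraf was measured at 87.6, 149, 136 and 96.4 CPM with vehicle and at 126, 157, 138 and 161 CPM with NAM/PN, with a log2 fold change of 0.31 (edgeR adjusted p = 0.762). Its groups overlapped, and its level was above 0 in all libraries. The part of this overlap in the Nid2 counts was not tested.

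Fn1 (ENSMUSG00000026193, chr1:71585520-71653200, minus strand), a matrix glycoprotein that is laid down around activated MuSCs and is known to fall in the aged niche, was even with vehicle and scattered with NAM/PN. Vehicle libraries held 19.5, 20.1, 16.3 and 14.1 CPM and NAM/PN libraries 39.5, 61.2, 1.83 and 22.3 CPM. Pools 1, 2 and 4 were higher with NAM/PN, while pool 3 had 12 counts, below every vehicle library. The fitted log2 fold change of Fn1 was 0.83 ± 0.584 with a 95% interval from -0.39 to 2.06 (edgeR adjusted p = 0.784). It ranged from 0.28 to 1.22 when single libraries or pools were left out. With the pool as a replicate block it was 0.30, and in the voom fit with quality weights 0.21.

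The NAM/PN libraries with the highest Fn1, those of pools 1 and 2, also held the most type I collagen transcript. Col1a1 was at 4.26, 1.74, 41.3 and 1.74 CPM with vehicle and at 486, 1030, 3.96 and 3.27 CPM with NAM/PN, and Col1a2 at 8.76, 4.96, 8.03 and 16.9 CPM and at 41.0, 76.4, 4.26 and 2.43 CPM. Both collagens are in the list of 12 fibro-adipogenic markers and were set beside Fn1 after their values were seen. The summed level of that list was 163 to 215 CPM with vehicle and 59.4 to 1200 CPM with NAM/PN, and its members Pdgfra, Dpt, Lum and Mfap5 had no count in any library. Col3a1 of the same list was lower with NAM/PN in all 4 pools, at 149 to 166 CPM under vehicle and 53.7 to 84.4 CPM under NAM/PN (log2 fold change -1.17, edgeR adjusted p = 0.00255). Without the NAM/PN libraries of pools 1 and 2, the log2 fold change of Fn1 was -0.53 (edgeR adjusted p = 0.920). A lower value was bound to follow, since these libraries held the most Fn1, so this fit does not bear on the collagen values. The NAM/PN libraries that remained were at 1.83 CPM in pool 3 (16.3 CPM with vehicle) and 22.3 CPM in pool 4 (14.1 CPM with vehicle). The part of the collagen transcript of pools 1 and 2 in the Fn1 values was not tested.

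Hspg2 (ENSMUSG00000028763, chr4:137468769-137570630, plus strand) encodes perlecan, a large heparan sulfate proteoglycan that binds laminin, nidogen and growth factors. It was measured at 101, 106, 147 and 99.7 CPM with vehicle and at 71.5, 73.0, 95.3 and 107 CPM with NAM/PN. Pools 1 to 3 were lower with NAM/PN, pool 4 was slightly higher, and the groups overlapped only through that library. Hspg2 had a log2 fold change of -0.39 ± 0.210 with a 95% interval from -0.83 to 0.05 (edgeR adjusted p = 0.636). It was -0.24 without the vehicle library of pool 3 and -0.17 without the NAM/PN libraries of pools 1 and 2.

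**Figure D3:**
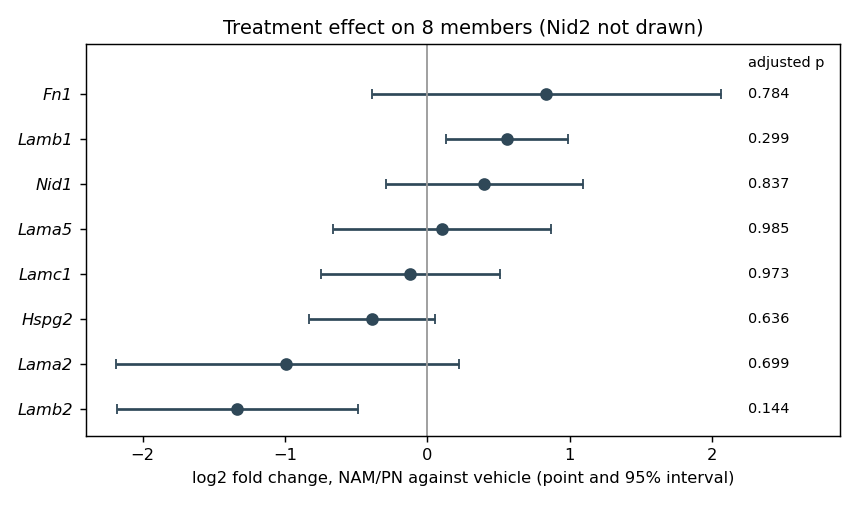
Log2 fold change of NAM/PN against vehicle for 8 members, with 95% intervals from the edgeR fit of 4 against 4 libraries and the p-value adjusted over all tested genes at the right. The intervals of Lamb1 (0.13 to 0.99) and Lamb2 (-2.18 to -0.49) leave out 0, but no adjusted p of these 8 genes is below 0.144. Nid2, at 0 in all NAM/PN libraries, has no finite interval, and Lama4 was not tested.

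Of the remaining laminin chains, Lama1, Lama3 and Lamc3 had no count in any library. Lamb3, a chain of epithelial laminin-332, was at 9.03 to 23.8 CPM with vehicle and at 9.36 to 16.8 CPM with NAM/PN. Its groups overlapped and it was not called. Of the 6 type IV collagen chains, which form the network that nidogen and perlecan connect to laminin, 2 were tested and none was called. Col4a2 had the smaller p of them, with 17.4 to 29.9 CPM under vehicle and 9.36 to 23.4 CPM under NAM/PN.

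Of 19 other basement membrane components, 10 were tested, 1 was called as higher and none as lower. This was Col18a1, a heparan sulfate carrying collagen whose cleaved end is endostatin, at 54.9 to 77.2 CPM with vehicle and 109 to 143 CPM with NAM/PN (log2 fold change 0.91 ± 0.198, edgeR adjusted p = 0.0214, higher in 4 of 4 pools). Of 12 receptors of laminin, nidogen and perlecan, 11 were tested, 1 was called as higher, 1 as lower and 9 were not called. Itga3, the alpha subunit of a laminin-511 and laminin-332 binding integrin, rose with NAM/PN, with 13.2 to 21.1 CPM under vehicle and 48.0 to 112 CPM under NAM/PN (log2 fold change 2.09 ± 0.311, edgeR adjusted p = 0.000956). Dag1, which encodes dystroglycan, the receptor of alpha-2 laminin on muscle fibers, fell with NAM/PN, with 228 to 347 CPM under vehicle and 110 to 205 CPM under NAM/PN (log2 fold change -0.98 ± 0.202, edgeR adjusted p = 0.0140). Both calls were kept with the replicate block. Of 10 receptors of fibronectin, 7 were tested and none was called, the smallest p being that of Plaur, the urokinase receptor, at 22.1 to 26.7 CPM with vehicle and 26.6 to 55.1 CPM with NAM/PN.

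Of 25 matrix proteases, inhibitors and crosslinkers, 19 were tested, 5 were called as lower with NAM/PN and none as higher. Serpine2, an inhibitor of thrombin and plasminogen activators, had a log2 fold change of -1.48 ± 0.179 (edgeR adjusted p = 0.000147). The matrix metalloproteases Mmp14 and Mmp2, the first of which activates the second at the cell surface, had log2 fold changes of -1.67 ± 0.288 (edgeR adjusted p = 0.00359) and -2.92 ± 0.579 (0.0106). The call of the metalloprotease inhibitor Timp2 (log2 fold change -0.70 ± 0.157, edgeR adjusted p = 0.0264), was lost with the replicate block (0.0590). Of 21 interstitial glycoproteins and proteoglycans, 13 were tested and 1 was called as lower, the small proteoglycan Bgn, at 57.9 to 73.1 CPM with vehicle and 3.65 to 15.6 CPM with NAM/PN (log2 fold change -2.54 ± 0.361, edgeR adjusted p = 0.000619). None of 14 genes for folding and export of secreted matrix proteins was called, and the one with the smallest p, the coat protein gene Sec23a, was at 39.7 to 43.3 CPM with vehicle and 11.5 to 41.2 CPM with NAM/PN. The median log2 fold changes of these 3 lists were -0.53, -0.20 and -0.07.

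**Figure D4:**
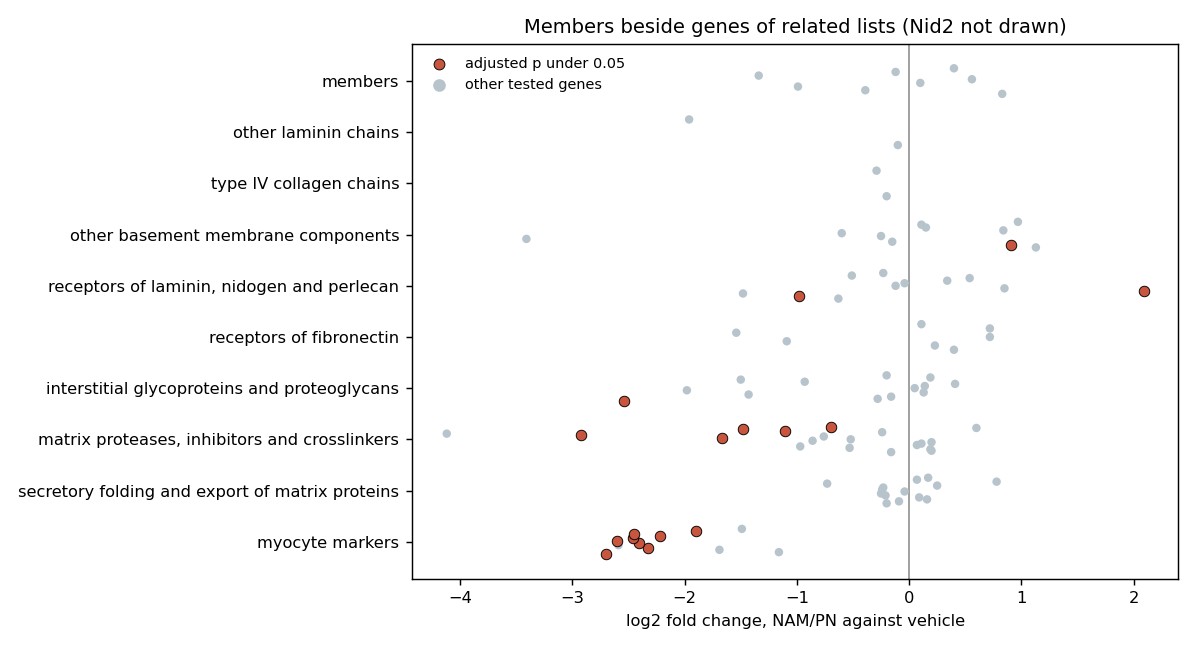
Log2 fold change of NAM/PN against vehicle (horizontal axis) for the tested members and for the tested genes of 9 related lists, each point being a gene, with filled red points for an edgeR adjusted p under 0.05. The 8 drawn members lie between -1.34 and 0.83 with none called, 5 genes of the protease list are called as lower, and the list of myocyte markers lies to the left of 0 (Nid2 is not drawn because it is at 0 counts in all NAM/PN libraries).

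Markers of other cell types were examined beside the members. Of 8 immune markers, 7 had no count and Cd68 gave the 0.979 to 7.58 CPM seen with vehicle and the 3.50 to 7.14 CPM seen with NAM/PN. Endothelial markers summed to 3.46 to 27.0 CPM and 9.85 to 29.6 CPM, mostly Egfl7, with 5 of 12 at 0. Glial markers summed to 5.93 to 44.5 CPM and 21.9 to 43.3 CPM, with 4 of 8 at 0. Tendon markers summed to 239 to 335 CPM and 202 to 274 CPM, with 4 of 6 at 0. Nearly all of this was Scx, at 236 to 331 CPM with vehicle and 202 to 273 CPM with NAM/PN. Mural markers summed to 290 to 618 CPM with vehicle and 107 to 156 CPM with NAM/PN, and Acta2, a smooth muscle actin that is also expressed in differentiating myoblasts, was the 1 called as lower (log2 fold change -2.38 ± 0.291, edgeR adjusted p = 0.000147), while the mural markers Myh11 and Higd1b had no count. Acta2 alone made up most of this sum with vehicle, and lay at 244 to 534 CPM with vehicle and 46.9 to 122 CPM with NAM/PN. The other tested mural markers, Cspg4, Notch3 and Mcam, were not called and had log2 fold changes of -0.53, -0.50 and 0.24. Of the untested ones, Pdgfrb (27 counts) and Kcnj8 (18 counts) were read only in the vehicle library of pool 2, as was Lama4 (30 counts). Rgs5 was read in vehicle libraries alone, and Abcc9 under both treatments. The part of mural cells in the Lama4 counts was not tested. The part of Acta2-expressing cells in the Nid2 and Lamb2 values was not tested.

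The genes whose level followed Nid2 most closely across the 8 libraries were Tpm1, Dclk1, Tap2, Ncam1 and Gas1. Pearson correlations of log2 CPM, ranked over the 9212 tested genes whose mean log2 CPM reached 3, were 0.992 for Tpm1, a tropomyosin, 0.988 for Dclk1, a microtubule-associated kinase, and 0.983 for each of Tap2, a peptide transporter, Ncam1, a cell adhesion molecule, and Gas1, a membrane protein linked to growth arrest. With 4 NAM/PN libraries at 0 counts of Nid2, this ranking mainly picks genes that separate the treatments, and all points share their libraries and depth. Of these 5 genes, 4 were called as lower with NAM/PN, with log2 fold changes from -2.62 (Dclk1) to -1.21 (Gas1). Tpm1 lay at 1450 to 1650 CPM with vehicle and 1070 to 1130 CPM with NAM/PN and was not called (edgeR adjusted p = 0.0561).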

How the data were processed

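MuSCs of aged mice were profiled by QuantSeq 3′ FWD RNA-seq. Per the labels and methods, RNASTAR was the aligner (GRCm38) and HTSeq 2.16.2 the counter of the authors, who deposited whole-number counts for 55487 genes in 8 libraries. The strand setting and the annotation release are not given in the sources used here. A 3′ tag is read about once per transcript, so counts do not scale with transcript length.

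Symbols and positions were taken from GENCODE M21 (GRCm38), which held 55227 of the identifiers. Counts were filtered with filterByExpr (minimum count 10, minimum total count 15), scaled by TMM and tested two-sided with edgeR 4.0.16 (glmQLFit, glmQLFTest) in R 4.3.3, treatment being the only term, with Benjamini-Hochberg adjustment over 12060 genes and a threshold of 0.05. CPM use TMM library sizes. The log2 CPM used for correlations include a prior count of 2, while fitted log2 fold changes use edgeR's default prior. A count of 0 was read against a floor of 3 counts. Intervals of shares are exact (Clopper-Pearson, 95%) and, like floors, cover counting error only. The script was tested on simulated data for this comparison with 12060 genes, where 58 of 100 genes changed 4-fold and 18 of 100 changed 2-fold were called, with 6 false calls, so 2-fold changes are often missed at this size. Every pair of libraries of a group differed by more than counting error (chi-square divided by its degrees of freedom at least 22.8).

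Libraries of the same number come from the same mice, as the labels state, and are paired. Their deviations from the group means correlated at -0.033 to 0.031 over genes. The fit with the pool as a replicate block was an alternative, as were DESeq2 1.42.0, relative log expression factors, no filter, limma 3.58.1 (voomWithQualityWeights with duplicateCorrelation), robust fits, thinned counts, an adjusted p under 0.10, and leaving out each library or pool. The members and gene lists were chosen with earlier results of these data known. Genes named are all members, the other laminin chains, the called genes of each other list (at most 4, by p) or else its gene of smallest p, and the 5 genes most correlated with the member of smallest p. Timp2, Rtraf, Gm48084, Cspg4, Notch3, Mcam, Chodl, Calcr, Ttn, Actc1, Col1a1, Col1a2, Pax7 and Myod1 were named beyond this rule. So were Scx, Rgs5, Pdgfrb, Kcnj8, Abcc9, Myh11, Higd1b, Pdgfra, Dpt, Lum and Mfap5. Some genes that the rule selects are not reported here.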

Additional observations from a re-analysis of the deposited data

Results flagged for a closer look

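Of 23 groups of 4 libraries examined, 18 of member levels and 5 of chain shares, 4 held a library set apart from the other 3 by a gap above Dixon's critical value, where chance gives about 1 in 20, or 1.2 groups. Lama4 was read in the vehicle library of pool 2 (3.72 CPM) and in none of the other vehicle libraries. With the others at 0 this flag was certain, so the rate of 1 in 20 does not apply to that group. Lamb1 was lowest in the vehicle library of pool 4, at 71.4 CPM against 106 to 111 CPM in the others. Hspg2 was highest in the vehicle library of pool 3, at 147 CPM against 99.7 to 106 CPM. Nid1 was lowest in the NAM/PN library of pool 4, at 16.8 CPM against 44.8 to 50.6 CPM.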

How the results depend on the processing

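The number of genes called was 154 and became 289 with DESeq2, 366 without the filter on low counts, 232 with voom and quality weights, 244 at an adjusted p under 0.10, and 76 without the NAM/PN libraries of pools 1 and 2, an alternative chosen after seeing the data. It ranged from 80 to 177 when single libraries were left out, and was 65, 42 and 94 without pools 1, 2 and 4. With the replicate block, 156 genes were called. The number of members called was 1 and became 0 with the replicate block, 2 (Lamb2 and Nid2) without the filter and 2 (Lamb2 and Nid2) with voom, and ranged from 0 to 1 when single libraries or pools were left out (0 in 4 of 12, those without pool 2, pool 4 or the vehicle library of either). The block changed no other member's call. Lamb2 had a log2 fold change of -1.35 without the filter and -1.64 with voom. Of 180 values of the 9 tested members under alternatives, 164 kept direction and side of the threshold, 5 lost the call (all Nid2) and 2 gained it (both Lamb2). The other 9 changed sign, none of them called. Lama5 was -0.41 and Fn1 -0.53 without the NAM/PN libraries of pools 1 and 2, which held the highest levels of both genes with NAM/PN. Lamc1 was 0.06 with voom. With single libraries left out, Lama5 ranged from -0.12 to 0.36 and Lamc1 from -0.33 to 0.05. Lama5 was -0.00 without pool 1 and -0.02 without pool 2, and Lamc1 was 0.05 without pool 4. The causes of these changes were not tested. Depth limits what a count of 0 shows for Nid2 and Lama4. With counts thinned to the smallest library, the Nid2 call held (edgeR adjusted p = 0.0114). Thinning cannot alter a count of 0, so this fit does not bear on that limit.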
